A study of Mus musculus with 19 samples.

Results

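Genes that astrocytes and injured tissue switch on were examined in the dorsal hippocampal CA1 region of mice whose hippocampus had been injected. The set held 10 named genes (Gfap, Vim, Serpina3n, Lcn2, Cd44, S1pr3, Osmr, Steap4, Timp1 and Hspb1), chosen by name and matched by Ensembl identifier, of 48709 genes in the count files. All 10 passed the filter on low counts (5 reads or more in 50% of libraries or more) and so belonged to the 19286 genes tested. RNA was sequenced in 19 libraries from male C57BL/6J mice. The libraries are numbered within a group, and whether each came from a separate animal is not stated, so libraries are read as animals below and p-values measure the spread between these samples. Young mice of 3 months (n = 6) and old control mice of 16.5 months (n = 6) had received a scrambled control oligonucleotide, and old anti-miR-mix mice of 16.5 months (n = 7) had received inhibitors of 3 microRNAs, miR-148a-3p together with miR-181a-5p and miR-146a-5p. All 3 groups thus carried a bilateral injection of lipid nanoparticles into the dorsal hippocampus. No uninjected animals were analysed here, so the level of these genes without an injection is not known, and the effect of the injection itself cannot be told apart from the baseline of any group.

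Astrocytes are the glial cells that supply neurons with metabolites and clear glutamate and potassium from the space around synapses. After injury or inflammation, and more mildly with age, they enlarge their processes and produce more intermediate filament protein together with secreted acute-phase proteins and cytokine receptors, a state called reactive astrogliosis. In the hippocampus Gfap rises with age, and a needle track through the tissue also evokes the response. Cytokines of the interleukin-6 family, which act through Osmr and related receptors and the transcription factor STAT3, are a well-known trigger.

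The inhibitors were short oligonucleotides that pair with 3 microRNAs, and their sequences are shown because they define the treatment. The mature microRNAs, from RefSeq, have the seed (bases 2 to 8) in capitals, and each inhibitor has the bases that pair with the seed in capitals. The scrambled control was given to the other groups.
miR-146a-5p: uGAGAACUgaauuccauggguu
inhibitor of miR-146a-5p: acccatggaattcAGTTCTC
miR-148a-3p: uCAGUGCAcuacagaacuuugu
inhibitor of miR-148a-3p: caaagttctgtagTGCACT
miR-181a-5p: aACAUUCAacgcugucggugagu
inhibitor of miR-181a-5p: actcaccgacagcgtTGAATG
scrambled control: taacacgtctatacgccca

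The annotated 3′ untranslated regions (3′UTR) of the 10 genes were searched for the letters that pair with each seed. For miR-146a-5p, AGTTCTC stood in 12.4% of 15351 tested genes with a 3′UTR and in 0 of 10 members. For miR-148a-3p, TGCACTG stood in 14.9% of them and in 1 of 10 members. For miR-181a-5p, TGAATGT stood in 18.1% and in 1 of 10 members. That member was S1pr3 in both cases, whose 3′UTR of 2876 bases is longer than the median of 1165. Those of Cd44 (2992 bases), Osmr (1794), Steap4 (1655) and Gfap (1341) were also longer than the median and held no match. The remaining members had short 3′UTRs, from 103 bases in Timp1 to 723 in Serpina3n. The 3 matches of S1pr3, in capitals with the bases around them, lie on the plus strand of chromosome 13 of GRCm38.
S1pr3, miR-181a-5p, chr13:51420125-51420131: catccttcTGAATGTaccaagct
S1pr3, miR-148a-3p, chr13:51420150-51420156: tgacacggTGCACTGccttcgga
S1pr3, miR-148a-3p, chr13:51420457-51420463: agtgccctTGCACTGgtgttcta

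Promoters (250 bases before to 50 after the start of the gene, RefSeq, GRCm38.p6, 32851 genes) were searched on both strands for the letters of 4 motifs of factors that act in injured tissue. The STAT motif TTCNNNGAA stood in 8.30% of all promoters and in those of Gfap and Steap4. The AP-1 motif TGANTCA stood in 7.81% and in that of Osmr. The heat shock motif GAANNTTC stood in 7.86% and, at 2 places, in that of Hspb1. The C/EBP motif TTGCNNNAA stood in 9.56% and in no member. The matches are shown on the strand of the gene, in capitals, and describe letters only.
Gfap, STAT, chr11:102897194-102897202: gggggtgcTTCCAGGAAgtcagggg
Steap4, STAT, chr5:7960356-7960364: ttgaactcTTCCCGGAAactttgct
Osmr, AP-1, chr15:6874304-6874310: cccgtagtTGATTCAtagctggg
Hspb1, heat shock, chr5:135887802-135887809: caacaagaGAAGTTTCcagatggg
Hspb1, heat shock, chr5:135887822-135887829: tgggggcaGAACCTTCctggcccc

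Depth was between 26653511 and 38908947 reads per library. Old control replicates 5 and 6 resembled each other more than any other pair of libraries of 1 group. Their chi-square per degree of freedom over 12780 genes was 2.184, whereas the next lowest pair was at 6.096. They carry separate labels and were kept apart, and results were also computed with both as 1 library. A whole number from 1 to 4 that the deposited log2 values carry for each library, called processing group here, was treated as a possible technical batch. Group 3 held no old control library. Defining markers of CA1 pyramidal neurons (6 of 6), astrocytes (10 of 10) and microglia (8 of 8) were present in the libraries. In bulk tissue, fewer cells of a type and less RNA per cell cannot be told apart.

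The levels of the members per length spanned a wide range. In RPKM (reads scaled to the exon length and the depth of the library), averaged over 19 libraries, Gfap was at 153, Serpina3n at 40.9, Vim at 19.1 and Lcn2 at 8.14. Timp1 (4.74), S1pr3 (4.54), Steap4 (2.55), Cd44 (1.53) and Osmr (1.18) were lower, and Hspb1 was lowest at 0.616. All following levels are log2 CPM (log2 of CPM, counts scaled to library depth, with a prior count of 2 reads) and can be compared between libraries for a gene, not between genes.

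**Figure D1:**
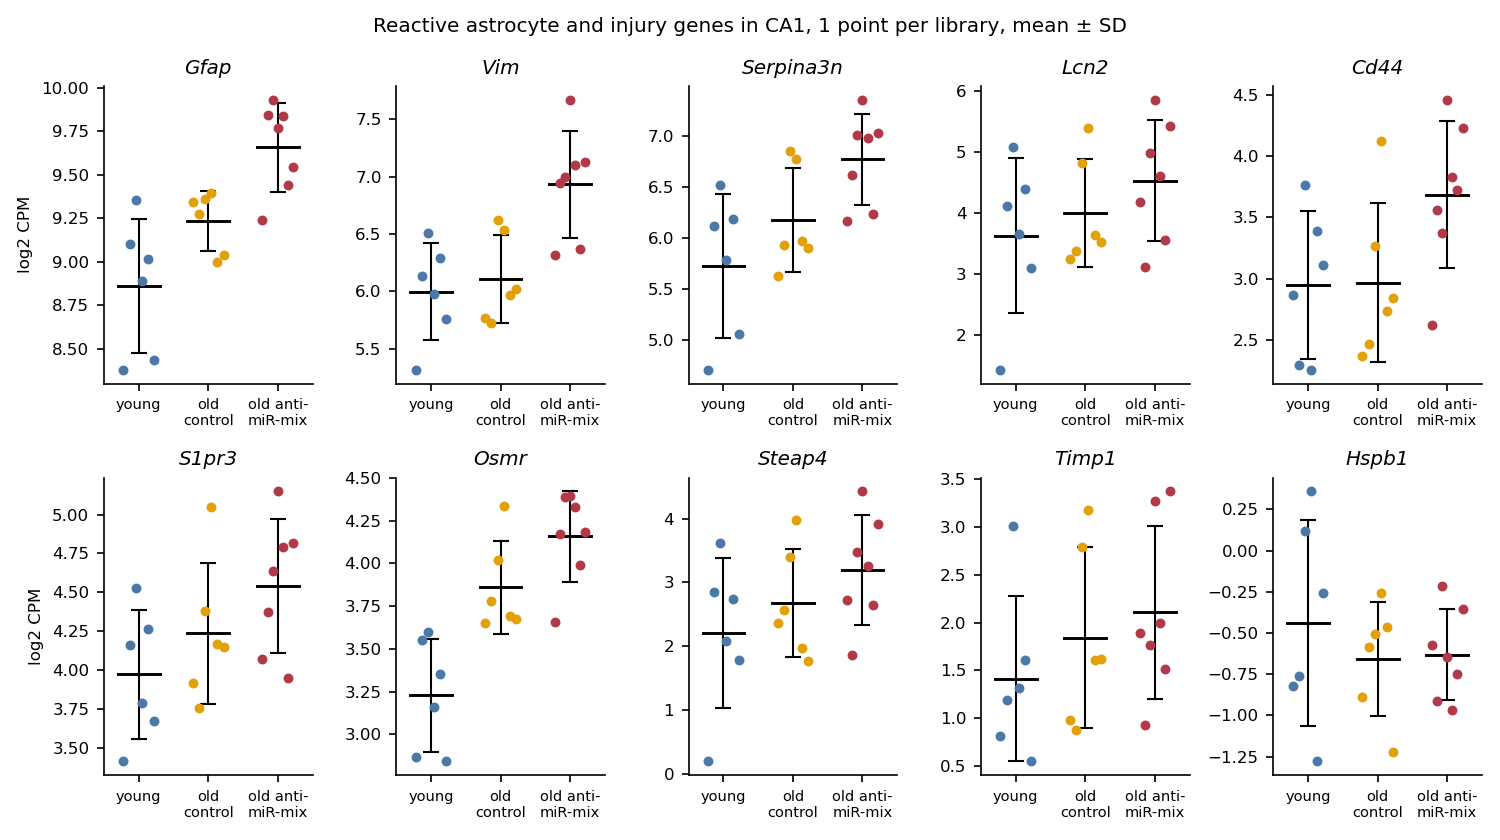
Level of each of the 10 genes (vertical axes, log2 CPM, a separate scale per gene) in the libraries of the young and both old groups. Each point is 1 library, the horizontal bar is the group mean and the whiskers are the SD (n = 6, 6 and 7). Osmr shows all 6 old control and all 7 old anti-miR-mix points above all 6 young points, whereas the points of Lcn2, Steap4 and Timp1 overlap widely.

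Gfap (chr11:102887336-102900912, minus strand of GRCm38) encodes glial fibrillary acidic protein, the intermediate filament that marks astrocytes. In young libraries its log2 CPM had a lowest value of 8.38, a median of 8.95 and a highest value of 9.35. The values were 8.997, 9.31 and 9.39 in old control libraries and 9.24, 9.77 and 9.93 in old anti-miR-mix libraries. The old anti-miR-mix libraries were the highest group, with 6 of 7 above every old control library and 6 of 7 above every young library, and old anti-miR-mix replicate 1 was the exception in both cases. Against young libraries Gfap rose by a log2 fold change of 0.77 (SE 0.14, 1.71-fold), with an adjusted p of 0.00124 in edgeR's quasi-likelihood test. The difference between old anti-miR-mix and old control libraries was 0.43 (SE 0.14), with an adjusted p of 0.198. That between old control and young libraries was 0.34 (SE 0.14), with an adjusted p of 0.205, and neither of these 2 passed the threshold of 0.05.

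Vim (chr2:13573927-13582826, plus strand) encodes vimentin, the filament protein that reactive astrocytes, endothelium and other non-neuronal cells assemble beside Gfap. Its lowest, median and highest log2 CPM were 5.32, 6.06 and 6.51 in young, and 5.72, 6.00 and 6.62 in old control libraries. In old anti-miR-mix libraries they were 6.32, 7.00 and 7.67. Young and old control libraries occupied much the same range, and 5 of 7 old anti-miR-mix libraries stood above all of them. The difference between old anti-miR-mix and young libraries was 0.95 (SE 0.21, 1.93-fold), with an adjusted p of 0.00722 in edgeR's test. Against old control libraries it was 0.85 (SE 0.21, 1.80-fold). The p of 0.000559 in the edgeR model became 0.0659 after adjustment over all genes, which narrowly missed the threshold. Between old control and young libraries the difference was 0.10 (95% interval -0.35 to 0.55). Vim was thus the member with the largest difference between the 2 old groups and among those with the smallest between the groups given control oligonucleotide.

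Serpina3n (chr12:104406729-104414329, plus strand) encodes a secreted inhibitor of serine proteases that reactive astrocytes release. Its log2 CPM ran from 4.71 over a median of 5.95 to 6.52 in young libraries, and from 5.63 over 5.95 to 6.86 in old control libraries. Old anti-miR-mix libraries ran from 6.17 over 6.98 to 7.36. The medians of young and old control libraries were alike, and the young group reached lower. Against young libraries the old anti-miR-mix group was higher by 0.97 (SE 0.27, 1.96-fold, adjusted p = 0.0321 in edgeR's test). This call was lost when any of 7 single libraries was left out, namely young replicates 1, 4 and 6 and old anti-miR-mix replicates 3, 4, 5 and 7, with log2 fold changes of 0.82 to 0.95 and adjusted p values of 0.0529 to 0.0820. The difference from old control was 0.58 (SE 0.26, adjusted p = 0.448). Of 7 paralogs in the same cluster 3 passed the filter on low counts, and 0 of these 3 were called in any of the 3 comparisons. All 7 together summed to at most 3.13 CPM in a library. How reads that match several copies were counted is not stated, and their part in the Serpina3n counts was not tested.

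Lcn2 (chr2:32384633-32388252, minus strand) encodes lipocalin 2, an acute-phase protein that binds the iron carriers of bacteria. Its log2 CPM had a lowest, median and highest value of 1.43, 3.89 and 5.08 in young libraries, of 3.24, 3.58 and 5.39 in old control libraries and of 3.12, 4.61 and 5.86 in old anti-miR-mix libraries. In reads, the range was from 73 in young replicate 1 to 1914 in old anti-miR-mix replicate 4. Within the young group, CPM differed 12.7-fold between the highest and the lowest animal. None of the 3 differences passed the threshold, and that between old anti-miR-mix and young libraries had a 95% interval of -0.20 to 1.80.

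Timp1 (chrX:20870166-20874735, plus strand) encodes an inhibitor of metalloproteinases, the enzymes that degrade extracellular matrix. Its levels had a lowest, median and highest value of 0.55, 1.25 and 3.01 in young, 0.88, 1.62 and 3.18 in old control and 0.93, 1.90 and 3.38 in old anti-miR-mix libraries. In each group most animals lay low and 1 or 2 stood far above, namely young replicate 3, old control replicates 3 and 4 and old anti-miR-mix replicates 4 and 7. The difference between old anti-miR-mix and young libraries was 0.69 (95% interval -0.28 to 1.66). Timp1 lies within the Syn1 gene, on the opposite strand and with 0 exon bases in common. Whether the counting used strand is not stated, and Syn1 had 291015 reads over the 19 libraries against 2502 for Timp1.

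Osmr (chr15:6813577-6874969, minus strand) encodes the receptor subunit that binds oncostatin M and signals through STAT3. Its log2 CPM had a lowest, median and highest value of 2.84, 3.26 and 3.60 in young libraries, of 3.65, 3.74 and 4.34 in old control libraries and of 3.66, 4.18 and 4.39 in old anti-miR-mix libraries. Every library of the old groups was above every young library, which made Osmr the only member whose old groups did not overlap with young. It was also the only member called in old control against young libraries, where it rose by 0.63 (SE 0.15, 1.54-fold, adjusted p = 0.0294 in edgeR's test). That call was lost without young replicate 1, 4 or 6 or without old control replicate 3 or 4, with values of 0.51 to 0.60 and adjusted p values of 0.0627 to 0.0746. Old anti-miR-mix libraries were above young ones by 0.93 (SE 0.15, 1.90-fold, adjusted p = 0.000374), the most certain difference of the set. Between the old groups the difference was 0.30 (SE 0.14, adjusted p = 0.462).

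S1pr3 (chr13:51408639-51422797, plus strand) encodes a receptor for sphingosine 1-phosphate, a lipid signal released in inflamed tissue. Its lowest, median and highest levels were 3.41, 3.98 and 4.53 in young, 3.76, 4.16 and 5.05 in old control and 3.95, 4.64 and 5.15 in old anti-miR-mix libraries. The groups overlapped, with 4 of 7 old anti-miR-mix libraries above every young library, and the difference of 0.58 (SE 0.22) had an adjusted p of 0.127. S1pr3, the member with letters that pair with the inhibited microRNAs, was at 0.30 (SE 0.21, adjusted p = 0.676) in old anti-miR-mix against old control. The 4 members called against young libraries held none, though the 3′UTRs of Vim (342 bases) and Serpina3n (723 bases) are short. Of its exon bases, 45 are shared with an antisense RNA gene.

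Cd44 (chr2:102811141-102901665, minus strand) encodes the cell surface receptor for hyaluronan, a glycan of the extracellular matrix. The values were 2.25, 2.99 and 3.77 in young, 2.36, 2.79 and 4.12 in old control and 2.62, 3.73 and 4.46 in old anti-miR-mix libraries. Young and old control libraries had means of 2.95 ± 0.60 and 2.97 ± 0.65 (SD, n = 6 each). The old anti-miR-mix mean was higher, at 3.69 ± 0.60 (SD, n = 7), and the difference of 0.69 (SE 0.31) from old control had an adjusted p of 0.425.

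Steap4 (chr5:7960457-7982213, plus strand) encodes a metalloreductase that reduces iron and copper at membranes. Its levels were 0.19, 2.41 and 3.62 in young, 1.77, 2.46 and 3.98 in old control and 1.86, 3.26 and 4.43 in old anti-miR-mix libraries. CPM differed 11.2-fold between the highest and the lowest young animal, and no comparison passed the threshold. Hspb1 (chr5:135887919-135889563, plus strand) encodes a small heat shock protein that keeps damaged proteins soluble. It was scarce, with 11 to 47 reads per library, and its lowest, median and highest levels were -1.28, -0.51 and 0.36 in young, -1.22, -0.55 and -0.26 in old control and -0.97, -0.65 and -0.22 in old anti-miR-mix libraries, all overlapping. The old anti-miR-mix to young difference of -0.33 had a 95% interval of -0.84 to 0.19. This interval leaves out a rise as large as that of Gfap and includes a fall of that size.

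**Figure D2:**
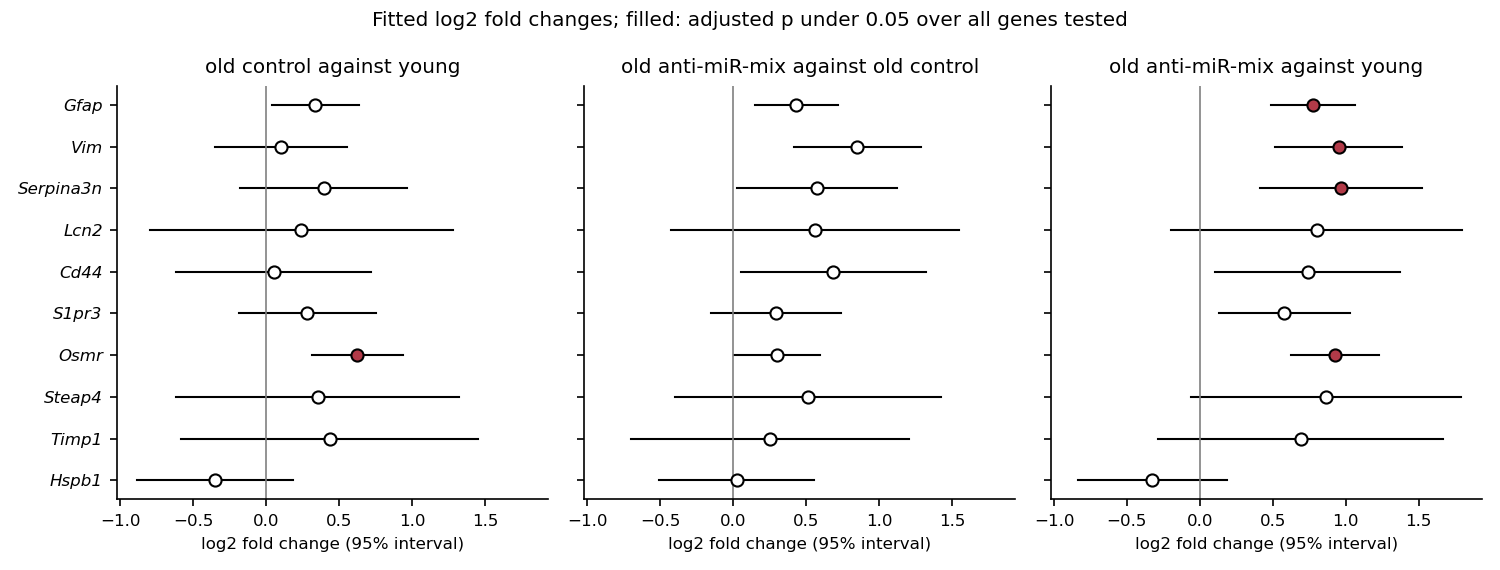
Fitted log2 fold change of each gene (horizontal axis) with its 95% interval (line) in the 3 comparisons. Filled points passed an adjusted p of 0.05 over all 19286 genes tested: Osmr alone in old control against young, no gene in old anti-miR-mix against old control, and Gfap, Vim, Serpina3n and Osmr in old anti-miR-mix against young.

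To ask what age alone did, old control libraries were compared with young ones. Of the members 1 of 10 was called higher, against 1.32% of all genes tested, and 0 were lower. A total of 9 of 10 had a fitted log2 fold change above 0, against 52.2% of all genes, and their median was 0.31, against 0.01 over all genes. The groups did not overlap, with old control higher, for 1 of 10 members and for 1.25% of all genes. With processing group as a term Gfap also passed, at 0.46 (adjusted p = 0.0410), but not once old control replicates 5 and 6 were also joined into 1 library (0.50, adjusted p = 0.0649). In the fit with processing group alone Osmr was at 0.73 (adjusted p = 0.000894). Within the 3 processing groups that held both, the age difference was 0.58 to 0.85 for Osmr and 0.27 to 0.93 for Gfap.

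To ask what the inhibitors did in old mice, old anti-miR-mix libraries were compared with old control ones. No member was called, against 0.669% of all genes called higher. All 10 of 10 had a fitted log2 fold change above 0, against 50.2% of all genes, and the median was 0.47, against 0.00 over all genes. Unadjusted p values under 0.05 in edgeR's test were found for 5 of 10, namely Gfap, Vim, Serpina3n, Cd44 and Osmr. In that order they ranked 458, 163, 1734, 1581 and 1899 by p among the 19286 genes tested. At least 1899 genes thus passed the same cut. Leaving out old control replicate 3 or young replicate 1, or old anti-miR-mix replicate 1 or 6, brought Vim past the threshold, at 0.85 to 0.96 with adjusted p values of 0.0217 to 0.0468. DESeq2 called Vim as well (0.85, adjusted p = 0.0289), as did edgeR without a filter on low counts (adjusted p = 0.0401). The differences were smaller when processing group was a term. Vim was then at 0.55 (adjusted p = 0.203), Gfap at 0.23 (adjusted p = 0.744), Serpina3n at 0.24 and Osmr at 0.11, while Timp1 and Hspb1 turned to -0.08 and -0.25. Within the 3 processing groups that held both, Vim was higher by 0.38 to 0.57, whereas Gfap ranged from -0.07 to 0.42 and Osmr from -0.06 to 0.31. Treatment and processing group were not balanced, and their parts in these differences cannot be told apart beyond these values.

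The third comparison set the treated old mice against young mice, and it shares libraries with both others. In it 4 of 10 members were called higher, against 4.57% of all genes tested, and 9 of 10 had a fitted log2 fold change above 0, against 51.0% of all genes. The median was 0.79, against 0.00 over all genes. The groups did not overlap for 1 of 10 members, against 1.79% of all genes with old anti-miR-mix higher. The 4 called genes were the filament genes Gfap and Vim, the protease inhibitor Serpina3n and the cytokine receptor Osmr. With processing group as a term all 4 passed, at 0.69, 0.82, 0.84 and 0.84 in that order, with adjusted p values of 0.000328, 0.000527, 0.00448 and 1.7e-05. Joining old control replicates 5 and 6 into 1 library also left 4 called.

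Microglia markers moved with the same groups. The 8 markers summed to 382 to 496 CPM in young, 484 to 562 CPM in old control and 569 to 767 CPM in old anti-miR-mix libraries, with all 7 of the last above all others. Of the 8, 5 were called higher in old anti-miR-mix than in old control libraries, against 0.669% of all genes. Against young libraries 7 were called higher, and 4.57% of all genes. These calls came from the fit without processing group and were not followed with it as a term. Astrocyte markers, which exclude the members, summed to 5949 to 6243 CPM in young, 5990 to 6838 CPM in old control and 5918 to 7297 CPM in old anti-miR-mix libraries, with wide overlap. In old control against young libraries 2 of 10 were higher (S100b and Sox9) and 1 was lower (Gjb6), where 1.34% of all genes were lower. In old anti-miR-mix against young libraries 3 of 10 were called higher, against 4.57% of all genes, and 0 were called between the old groups. The 3 were Slc1a3 by 0.20 (adjusted p = 0.0119), S100b by 0.42 (adjusted p = 2.14e-06) and Sox9 by 0.43 (adjusted p = 0.00076). Leptomeningeal fibroblast markers, of cells that also express Vim, Cd44, Osmr and Timp1, summed to 35.6 to 173 CPM in young, 82.5 to 130 CPM in old control and 71.5 to 147 CPM in old anti-miR-mix libraries, and 0 of 6 were called. Endothelial markers lay between 124 and 153 CPM over all libraries, and 0 of 6 were called in any comparison. Oligodendrocyte markers, the sign of white matter in the sample, summed to 7196 to 11127 CPM in young, 6251 to 7519 CPM in old control and 6336 to 9519 CPM in old anti-miR-mix libraries. Of these markers, 4 of 6 were lower in old control than in young, against 1.34% of all genes. Choroid plexus markers reached 105 CPM in an old anti-miR-mix library and 82.8 CPM in an old control library, against 27.9 CPM at most in young, and 0 of 4 tested were called. The part of these cells in the differences was not tested.

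The members differed in how much of their variation the groups held. Group means accounted for 68.1% of the sum of squares of Osmr and for 61.7% of that of Gfap. They accounted for 54.2% for Vim and 41.8% for Serpina3n, but for 13.1% for Lcn2, 17.2% for Steap4 and 10.7% for Timp1, against a median of 14.7% over all genes tested. The SD between animals within groups was 1.06, 0.97 and 0.91 log2 units for Lcn2, Steap4 and Timp1, against a median of 0.15 over all genes.

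Animals that had received the same injection differed widely in several of these genes. In edgeR's model the biological coefficient of variation (BCV, the spread between animals beyond counting noise) was 59.0% for Lcn2, 56.1% for Timp1, 55.1% for Steap4 and 37.4% for Cd44. The trend over all genes at the same abundance was at 9.09%, 14.8%, 12.6% and 11.7%. Serpina3n was at 32.7%, S1pr3 at 26.6%, Vim at 25.8%, Osmr at 17.6% and Gfap at 17.2%. The ratio of the BCV to the trend lay above the 94th percentile of all genes for 9 of 10 members, from 94.5 for Osmr to 99.9 for Lcn2 and Serpina3n, and Hspb1 was the exception at 83.3.

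**Figure D3:**
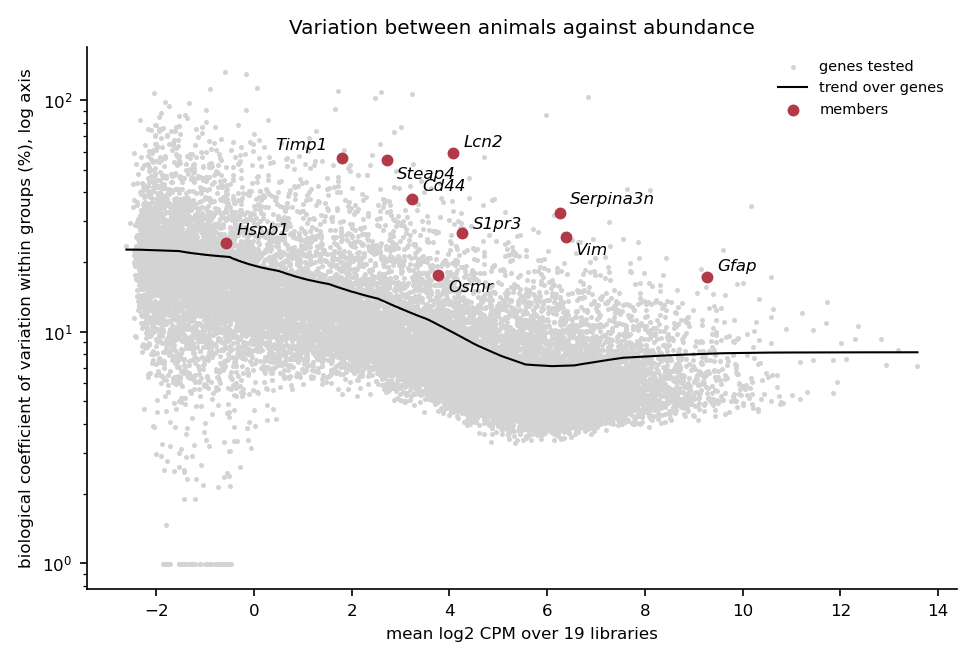
Biological coefficient of variation within groups (vertical axis, percent, log scale) against mean log2 CPM over 19 libraries (horizontal axis). Grey points are the 19286 genes tested, the line is the trend that edgeR fitted over them, smoothed by a running median, and red points are the 10 members, all of which lie above the line, from Lcn2 at 59.0% to Gfap at 17.2%.

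The spread itself was compared between groups by limma on absolute deviations from the group mean. No member was called in any comparison. Of all genes, 0.00% were called in old control against young libraries, 0.0311% in old anti-miR-mix against old control and 0.00% in old anti-miR-mix against young, and unadjusted p values under 0.05 were found for 6.45%, 8.99% and 8.62% of genes. Among the members, unadjusted p values under 0.05 were found for Gfap and Hspb1 in old control against young libraries and for Hspb1 in old anti-miR-mix against young. The SD of Gfap was 0.38 in young, 0.17 in old control and 0.25 in old anti-miR-mix libraries, and the lowest adjusted p of a member was 0.469. A p that misses the threshold does not show that the spreads were equal.

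The same animals were high in gene after gene. Young replicate 3 was the highest of its group for 9 of 10 members, old control replicate 4 for 8 of 10 and old anti-miR-mix replicate 4 for 7 of 10. At the other end, young replicate 1 was the lowest of its group for 6 of 10 members, old anti-miR-mix replicate 1 for 5 and old control replicate 1 for 4. Young replicate 3 had 1121 reads of Lcn2, 406 of Steap4 and 266 of Timp1, and young replicate 1 had 73, 30 and 47. Young replicate 3, which had received control oligonucleotide, thus exceeded 5 of 7 old anti-miR-mix animals in each of these 3 genes.

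**Figure D4:**
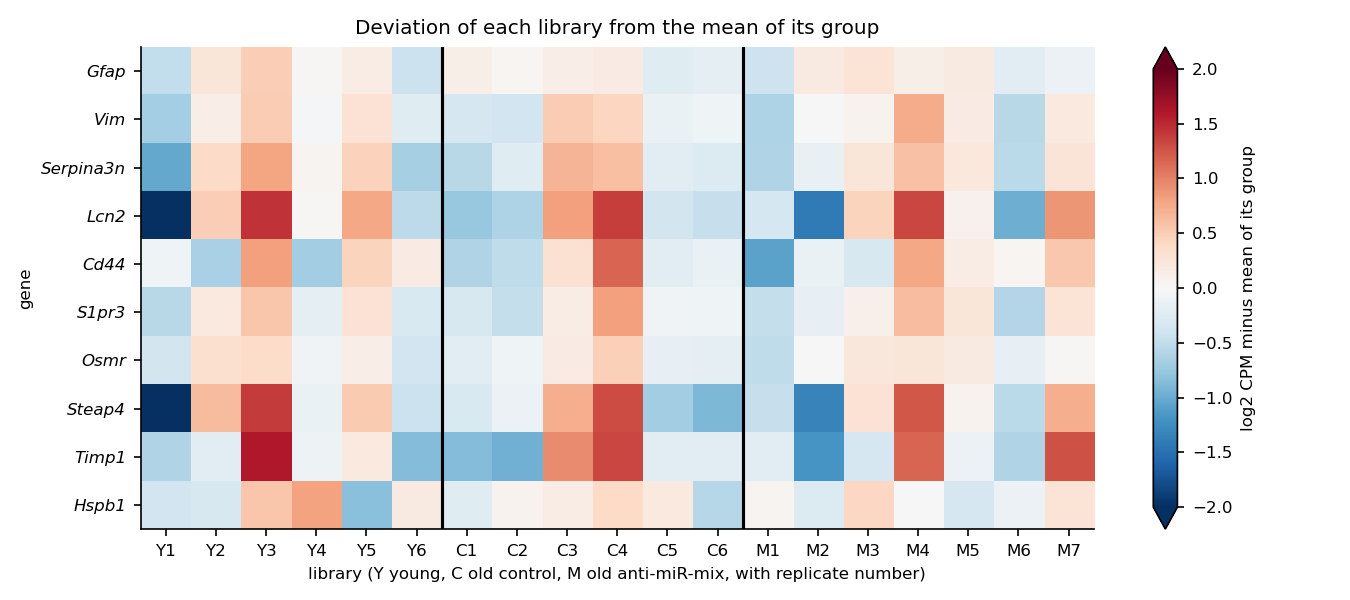
Deviation of each library (columns) from the mean of its group, in log2 CPM (colour, red above and blue below the mean), for the 10 genes (rows). Young replicate 3, old control replicates 3 and 4 and old anti-miR-mix replicates 4 and 7 are red in Lcn2, Steap4 and Timp1, and young replicate 1 lies beyond the end of the scale for Lcn2 (-2.20) and Steap4 (-2.02).

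Relations between members were measured on values centred on the group mean, over 19 libraries. Gfap had been set as the index gene, and the 9 relations to it were tested by limma over all genes and by 100000 permutations of animals within groups (two-sided). Osmr followed Gfap most closely, with a Pearson r of 0.868 (permutation p = 2e-05), a Spearman rho of 0.849 (permutation p = 3e-05) and an adjusted p of 0.00489 over all genes. Serpina3n came next, with r = 0.805 (permutation p = 0.00033), rho = 0.754 (permutation p = 0.00074) and an adjusted p of 0.0252. The call of Serpina3n was lost when young replicate 1, 3 or 6 or old anti-miR-mix replicate 1 or 6 was left out, with r of 0.746 to 0.796 and adjusted p values of 0.0506 to 0.150. Without the 2 libraries farthest from the median of Gfap these values of r were 0.827 and 0.707. These 2 of 9 were called, against 0.306% of all genes called with a positive relation. The other 7 ranged from 0.714 for Vim (permutation p = 0.0012, adjusted p = 0.106) over 0.389 for Timp1 and 0.309 for Cd44 to 0.150 for Hspb1.

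Lcn2 and Steap4 were related more closely than any other pair of the 45, with r = 0.967 and rho = 0.921. Their permutation p of 1e-05 is the smallest that 100000 permutations can give, and the adjusted p over all genes was 5.5e-07. The value of r was 0.993 within young, 0.897 within old control and 0.983 within old anti-miR-mix libraries, and 0.942 without the 2 libraries farthest from the median of Lcn2. Of these 2 genes, Steap4 alone held a STAT motif in its promoter window, and Lcn2 held none of the 4 patterns searched, of which that for C/EBP left out other spacings. Pairs among Vim, Serpina3n, Lcn2, S1pr3 and Steap4, which were grouped after the values had been seen, had r of 0.808 to 0.967 (10 pairs). Cd44 was related less closely to the others (0.309 to 0.737), and the 9 pairs with Hspb1 lay between 0.084 and 0.371. The pairs other than those with Gfap were computed after the values had been seen.

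**Figure D5:**
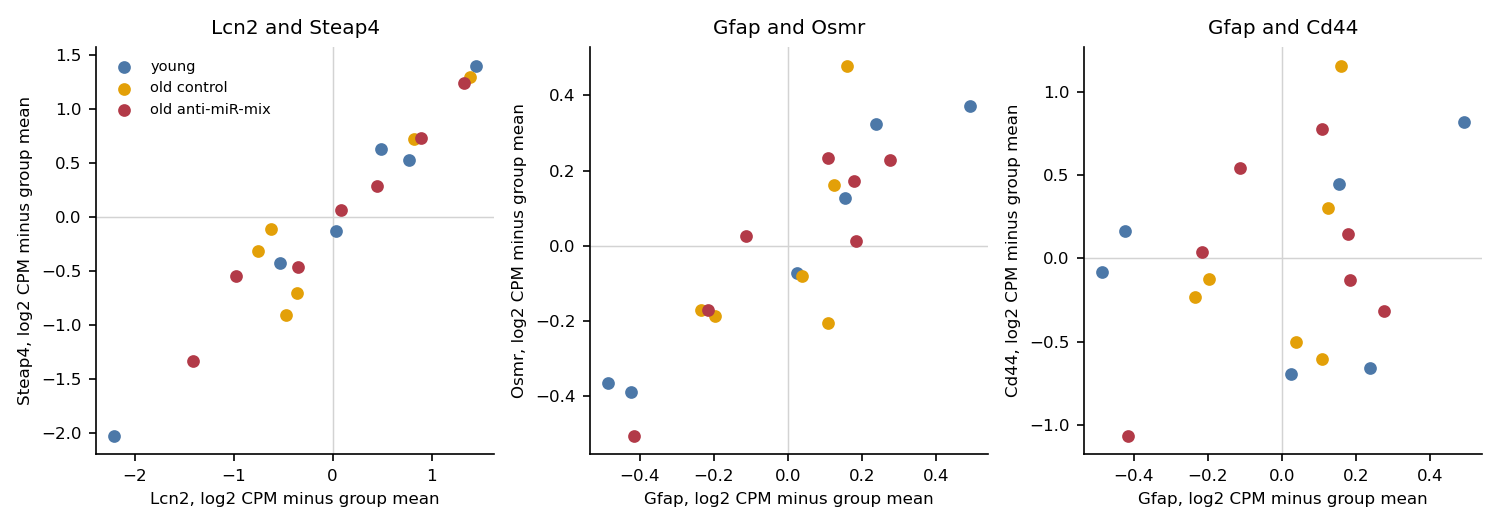
Group-centred log2 CPM of Steap4 against Lcn2, of Osmr against Gfap and of Cd44 against Gfap, with each point 1 library coloured by its group. The points of the first pair lie close to a line (r = 0.967), those of the second scatter more (r = 0.868) and those of the third show no clear order (r = 0.309).

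Processing groups moved with these deviations. All 4 libraries of processing group 1 (young replicate 1, old control replicates 1 and 2 and old anti-miR-mix replicate 1) lay below the mean of their own group for 8 of 10 members, the exceptions being Gfap and Hspb1. Their mean deviation was -0.98 for Lcn2, -0.60 for Serpina3n and -0.50 for Vim. With processing group as a further term, r was 0.738 between Gfap and Osmr and 0.587 between Gfap and Serpina3n, and neither was called (adjusted p = 0.857 and 1.00). The value for Lcn2 and Steap4 was 0.955, with an adjusted p of 0.000318 over all genes. Over the 45 pairs the median r was 0.737 without and 0.587 with that term. In limma, with the member listed first as index, 22 pairs were called without and 1 with it. The choice of index mattered, as Gfap and Vim had an adjusted p of 0.106 with Gfap and 0.0445 with Vim as index. The share of all genes called was computed for Gfap as index only, so these counts have no share beside them. The 10 pairs of Vim, Serpina3n, Lcn2, S1pr3 and Steap4, grouped after the values had been seen, had r of 0.670 to 0.955 with that term, and 1 was called. What the processing groups stand for is not described, and their part in the relations was not tested further.

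The markers of neutrophils, blood cells that enter injured brain and carry much Lcn2, were at or near 0. Of 6 markers 2 passed the filter (S100a8 and S100a9). Of these 2, 2 were called higher in old anti-miR-mix than in young libraries, against 4.57% of all genes, with a median log2 fold change of 2.55. In the other comparisons 0 were called. Ly6g had 3 reads or fewer in every library, and the list summed to at most 4.57 CPM. It was nevertheless highest in libraries that were high in Lcn2, with 1.02 CPM in young replicate 3, 2.59 CPM in old control replicate 4 and 4.57 and 3.11 CPM in old anti-miR-mix replicates 4 and 7. The other libraries of these groups were at most 0.41, 0.72 and 1.42 CPM. Among them the order did not follow Lcn2. Old control replicate 3, with 28.0 CPM of Lcn2, had 0.22 CPM of the markers, against 0.71 and 0.72 in replicates 1 and 2, the lowest in Lcn2. Old anti-miR-mix replicate 2, the lowest of its group in Lcn2, had 1.42 CPM. The part of neutrophils in the result was not tested.

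The genes that followed each member most closely over 19 libraries were taken from 15959 genes with a mean of at least 20 reads. For Lcn2 they were Steap4 (r = 0.967), the complement gene C3 (0.964) and Chil1, which encodes a secreted chitinase-like protein (0.934). Steap4 was followed by Lcn2, C3 (0.959) and A2m (0.938). Timp1 went with Chil1 (0.919), the metalloproteinase gene Mmp3 (0.905) and Ccn5 (0.903). For Gfap they were the urea transporter gene Slc14a1 (0.930), Ly86 (0.929) and C1qb (0.915), of which the last is a complement gene of microglia. Osmr was followed by Itgam (0.920) and Ptprc (0.917), genes of microglia and blood leukocytes, and by Serpina3n (0.912). Vim was followed by Msn (0.960), Csf2rb2 (0.947) and Serpina3n (0.941), and Serpina3n by Tgm1 (0.944), Vim (0.941) and Gm49339 (0.939). For S1pr3 they were Tgm1 (0.945), Csf2rb2 (0.938) and Glipr2 (0.931), and for Cd44 Sulf1 (0.913), Socs3 (0.873) and Cyp1b1 (0.854). Hspb1 reached at most 0.771, with Hpn, followed by Ehd2 and Zbtb16.

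Other genes of the reactive response were read from lists. Among 3 further genes of the general response, Aspg rose with age by 0.74 (SE 0.19, adjusted p = 0.0384), and was above young libraries in the old anti-miR-mix group by 1.17 (SE 0.18, adjusted p = 0.000323). Cp, which encodes ceruloplasmin, was higher in old anti-miR-mix than in young by 0.83 (adjusted p = 0.0213), and Cxcl10 was not called. Of 12 genes often used for an inflammatory type of reactive astrocyte (A1), 3 were called higher in old anti-miR-mix than in young libraries. They were Ggta1 (0.88), Fbln5 (0.62) and Srgn (0.68), where 4.57% of all genes were called higher. In the other comparisons 0 were called. All 12 had fitted values above 0 in old anti-miR-mix against old control, against 50.2% of all genes. Their median was 0.46, against 0.00 over all genes. C3, the best known of them, had a log2 fold change of 1.29 there, with an SE of 0.47 and an adjusted p of 0.289. Of 11 tested genes used for the type seen after ischaemia (A2), 2 were called higher in old anti-miR-mix than in young, against 4.57% of all genes. These were Cd14 (0.97), which microglia also express, and Clcf1 (0.63).

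Genes around Osmr were read from 3 lists. Of 4 tested ligands of the interleukin-6 family, Lif rose with age by 0.59 (SE 0.15, adjusted p = 0.0368). In old anti-miR-mix against young libraries Lif was higher by 0.75 (adjusted p = 0.00191). Osm, Il11 and Ctf1 were not called in any comparison. In old control against young, Il11 was at -0.79 (adjusted p = 0.0910), Osm, the gene of oncostatin M, at 0.87 and Ctf1 at 0.07. The 6 ligands of the list summed to at most 4.70 CPM in a library. Of 9 receptors and kinases, Stat3 (0.25, adjusted p = 0.0285) and Il6ra (0.29, adjusted p = 0.0379) were called in old anti-miR-mix against young, where 4.57% of all genes were higher. Of 6 STAT3 target genes 0 were called in any comparison, though all 6 had fitted values above 0 in each of the 3. Over all genes, 52.2% (old control against young), 50.2% (old anti-miR-mix against old control) and 51.0% (old anti-miR-mix against young) had such values. Socs3, the feedback inhibitor, was at 0.64 (SE 0.25, adjusted p = 0.142) in old anti-miR-mix against young.

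Partners of the other members were called in part. Of 9 further TIMP and metalloproteinase genes, Mmp2 was higher in old anti-miR-mix than in old control libraries by 0.79 (SE 0.13, adjusted p = 0.00773). In old anti-miR-mix against young libraries Mmp2 (0.65), Mmp12 (2.84) and Mmp14 (0.33) were called, where 4.57% of all genes were higher. Spp1, which encodes osteopontin, a ligand of Cd44, was higher in old anti-miR-mix than in old control by 1.94 (SE 0.38, adjusted p = 0.0221). On that list 0 of 5 hyaluronan enzymes were called. The calls of Mmp2 and Spp1 between the old groups came from the fit without processing group and were not followed with it as a term. Processing group 3 held 3 old anti-miR-mix and 0 old control libraries. Of 7 other intermediate filament genes only Synm was called, at 0.27 in old control and 0.20 in old anti-miR-mix against young. Of 8 other genes of sphingosine 1-phosphate signalling only Sgpl1 was (0.18 in old anti-miR-mix against young). Of 8 tested genes of STEAP and iron handling, Hmox1 (0.76) and Fth1 (0.26) were higher and Tfrc, the transferrin receptor gene, was lower (-0.23) in old anti-miR-mix than in young libraries, where 1.63% of all genes were lower. None of 6 other small heat shock genes was called in any of the 3 comparisons.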

How the data were processed

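RNA of microdissected CA1 was sequenced as 19 polyadenylated libraries with single-end reads. Per the submitters' processing notes, the authors checked reads with FastQC 0.11.5, aligned them to mm10 with STAR 2.5.2b and made the deposited counts of reads per Ensembl gene with featureCounts of Subread 1.5.1, with strand and multi-mapping options not given in the sources used here. The deposited log2 values, for 18761 genes, equalled log2(CPM + 1) minus a slope per gene times a number from 1 to 4 per library (processing group), to within 3.4e-08, and were used for 1 alternative. All 19 count columns were assigned, with 0 left out. Groups follow the labels' descriptions, since titles of control libraries also begin with the name of the experiment.

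TMM factors and the quasi-likelihood test of edgeR 4.0.16 in R 4.3.3 were used (all 3 groups in 1 fit, no covariate, a minimum of 5 reads in 50% of libraries or more), with Benjamini-Hochberg adjustment over 19286 genes and a threshold of 0.05. SE values were derived from the F statistic. Spread and relations to Gfap were tested with limma 3.58.1 on log2 CPM (prior count 2), with adjustment over all genes. DESeq2 1.42.0, other size factors, no filter, other terms and omission of each library were alternatives. Scripts were tested on simulated data. Symbols, coordinates and exon lengths were taken from GENCODE M21 (GRCm38). Named genes were the 10 members, up to 4 called genes of each list and the 3 genes most alike each member. The members and lists were chosen with earlier results of these data known, so they give no independent support.

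Whether numbers in the labels pair the libraries was checked on group-centred values. Same-numbered libraries correlated at -0.332 to 0.365 over 18 pairs, and 8 pairs were over 0.1, so the numbers were not taken as pairs.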

Additional observations from a re-analysis of the deposited data

How the results depend on the processing

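The old anti-miR-mix to young comparison had 4 members called in each alternative other than omission of a library, which gave 3 or 4, and 890 to 1520 genes. The number of members called by age was 1 in all of these alternatives except processing group as a factor (2), and 0 to 1 when libraries were left out. Members called between the old groups were 0, or 1 with DESeq2, without a low count filter and with the replicate block, and 0 to 1 when libraries were left out. The cause was not tested.

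Genes called by age were 514. They were 914 with DESeq2, 323 without a filter, 772 with only the groups compared in the fit, 302 with old control replicates 5 and 6 as 1 library, 212 with processing group added to that, and 214 to 747 when single libraries were left out. Between the old groups they were 129, and 267, 126, 55, 36 and 4 in the same order, 9 with processing group as a factor and 24 to 247 when single libraries were left out. The alternative that joins processing group with old control replicates 5 and 6 as 1 library, and the relations with an index other than Gfap, were chosen after seeing the data.

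Replicate numbers were not taken as pairs, and 4 of 18 libraries correlated best with their own number. The replicate block gave 249 genes and 1 member (Vim) between the old groups, moved Cd44 by age to -0.035 and Hspb1 between the old groups to -0.042, and left 0 members called in relation to Gfap, with Hspb1 at r = -0.37.

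Directions turned in the following cases, none of them a called value. Between the old groups, with processing group as a factor, Timp1 was at -0.075 and Hspb1 at -0.25. Hspb1 was at -0.0090 with old control replicates 5 and 6 as 1 library, and with both changes Steap4 was at -0.053, Timp1 at -0.081 and Hspb1 at -0.26. With processing group as a factor 0 members were called in relation to Gfap, and r was -0.083 for Timp1 and -0.42 for Hspb1. When single libraries were left out, the age difference ranged from -0.014 to 0.21 for Vim, from -0.29 to 0.25 for Cd44, from -0.17 to 0.61 for Lcn2 and from -0.023 to 0.72 for Steap4. The difference between the old groups ranged from -0.078 to 0.12 for Hspb1 and from -0.0091 to 0.63 for Timp1. In relation to Gfap, 1 to 3 members were called and r of Hspb1 ranged from -0.022 to 0.27. Of 1086 recomputed values of single genes, 1032 kept their direction and their side of the threshold. Most of these values were not called in the main fit either, so the count says little about the called values, whose losses are given above. At 11 to 47 reads per library, depth limits Hspb1 most.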
